A study of Homo sapiens with 4 samples.

Results

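The 10 genes FN1, TNC, THBS1, POSTN, SPARC, FBN1, MGP, DCN, BGN and LUM encode glycoproteins and proteoglycans of the extracellular matrix that are not collagens. They were taken by name, through every array probe that carries a RefSeq transcript of 1 of them, which gave 13 probes out of 50590, and 10 of the 20501 genes with a symbol. RNA came from MCF-10A, a non-tumorigenic cell line grown from human breast epithelium, after treatment with peptides held in a helix by a chemical bridge (stapled peptides), each at 10 µM. The 4 conditions were stapled-peptide at 24 h, non-specific stapled-peptide at 24 h, stapled-peptide at 48 h and non-specific stapled-peptide at 48 h, with 1 single-colour Agilent array for each and no untreated cells among them. The label control stands beside non-specific stapled-peptide as well, and the labels do not tie either peptide to a numbered analog of the study. With 1 array per condition there was no replicate error and no test, so every difference below is a comparison of single arrays, and their number limits the precision.

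The matrix outside the collagens is built from proteins with separate tasks. Fibronectin and fibrillin form fibrils, the matricellular proteins (tenascin, thrombospondin, periostin and SPARC) tune how cells hold on to them, and the small leucine-rich proteoglycans decorin, biglycan and lumican bind collagen and carry sugar chains. In the mammary gland most of this matrix is made by stromal cells, although cultured basal-like epithelial cells make part of it themselves.

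The array with non-specific stapled-peptide at 48 h stood apart from the other 3 over the whole set of probes. Over the probes with signal well above background on at least 1 array of each pair, its Pearson correlation with the others was 0.799 to 0.807, against 0.976 to 0.978 among the others. Probes are not independent replicates, so these are descriptions. It also differed in markers of cell identity, with a summed log2 signal of 9.79 for 10 basal mammary markers, against 16.85 to 16.86 on the others, and 14.58 for 10 markers of an embryonic kidney line, against 7.86 to 8.003. The latter sum was led by CKB and LIN28B, and the name of the list does not identify the cells. Of the 8 kidney line markers with a difference between the peptides at 48 h, 6 were higher and 2 lower on this array. Whether this array holds RNA of the labelled cells was not tested, and every 48 h difference between the peptides rests on it. Its share of spots well above background, 65.7%, was the highest of the range of 62.5 to 65.7%. For the 10 genes, the comparisons that hold this array are therefore given beside those without it, which are the peptides at 24 h and the stapled-peptide arrays over time. For the related lists, only the medians and the count past 10-fold at 24 h are given beside them.

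At 48 h, 6 of the 10 genes were more than 10-fold lower with non-specific stapled-peptide than with stapled-peptide: FN1, THBS1, POSTN, SPARC, MGP and DCN. The fold passed 100 for 3 of these, MGP, DCN and FN1. FBN1, TNC and BGN were lower by less, and LUM was the only 1 of the 10 that was higher. Among all 17112 genes with a difference, 3.92% were over 10-fold lower and 0.707% over 100-fold lower. At 24 h the peptides differed by less than 2-fold for each of the 9 genes with a difference, and none of them passed 10-fold.

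For the genes over 10-fold lower, the sequence before the transcription start is shown where the RefSeq promoter table (build GRCh38.p14) holds it, since these genes were low on the same array. The table holds 7 of the 10 genes, and MGP, DCN and LUM are not among them. The 250 bases before the start lie at chr2:215436069-215436318, minus strand, for FN1, at chr15:39580829-39581078, plus strand, for THBS1, at chr13:37598769-37599018, minus strand, for POSTN, and at chr5:151686916-151687165, minus strand, for SPARC. Each is written 5′ to 3′ along its gene, and capitals mark matches on either strand to TATAAA (the TATA box), TGANTCA (AP-1), TGACGTCA (the cyclic AMP response element) and GGAATG (TEAD).
FN1: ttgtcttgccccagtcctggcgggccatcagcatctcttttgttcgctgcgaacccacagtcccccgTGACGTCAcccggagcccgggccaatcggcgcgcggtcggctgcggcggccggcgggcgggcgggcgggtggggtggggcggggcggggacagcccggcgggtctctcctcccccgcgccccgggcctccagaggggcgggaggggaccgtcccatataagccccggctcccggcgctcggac
THBS1: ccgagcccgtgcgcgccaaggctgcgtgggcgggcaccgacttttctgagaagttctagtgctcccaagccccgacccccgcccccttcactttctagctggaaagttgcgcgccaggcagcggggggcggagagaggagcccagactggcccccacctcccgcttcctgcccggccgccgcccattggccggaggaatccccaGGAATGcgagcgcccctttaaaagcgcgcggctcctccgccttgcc
POSTN: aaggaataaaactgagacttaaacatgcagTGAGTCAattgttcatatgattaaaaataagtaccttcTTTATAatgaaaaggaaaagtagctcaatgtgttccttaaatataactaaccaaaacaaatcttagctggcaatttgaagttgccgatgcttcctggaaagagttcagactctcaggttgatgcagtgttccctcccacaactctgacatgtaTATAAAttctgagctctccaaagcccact
SPARC: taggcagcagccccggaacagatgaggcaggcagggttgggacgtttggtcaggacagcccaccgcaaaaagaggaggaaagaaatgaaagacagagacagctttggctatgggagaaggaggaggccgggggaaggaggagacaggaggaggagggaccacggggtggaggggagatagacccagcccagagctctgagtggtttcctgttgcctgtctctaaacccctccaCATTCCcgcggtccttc
The 4 sequences do not share a match to any 1 of these motifs. FN1 has the cyclic AMP response element 183 bases before its start, a motif found in 1.85% of 35116 promoters of 300 bases, which reach 50 bases past the start. POSTN has TATAAA at 29 and, on the other strand, at 182 bases before its start, and the AP-1 motif at 220 bases; these motifs are in 11.5% and 7.71% of promoters. GGAATG, found in 14% of promoters, lies 46 bases before the start of THBS1 and 17 bases before that of SPARC, and also 58 bases before that of FBN1, which was lower by less than 10-fold. The promoters of TNC and BGN hold none of the 4 motifs. GC content ranged from 39% for POSTN to 76.7% for FN1, with a median of 68.3% over the 7 genes against 58.7% over all promoters. These are matches of letters and show no binding.

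FN1 encodes fibronectin, the fibril-forming glycoprotein through which integrins attach cells to the matrix. Its normalized log2 signal at 24 h was 12.42 for stapled-peptide, against 12.35 for the non-specific stapled-peptide; at 48 h these were 12.61 and 3.12. As deposited, before normalization, the same spots had signals of 5813, 5379.8, 5722 and 7.81. Only the last array was low, and there the spot was not well above background, so the 48 h difference of −9.05 (log2) is a bound, at least 529-fold lower. The software's own error was 10.0% of the signal on each of the other arrays and 32.4% on this one.

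Among the matricellular genes, THBS1, POSTN and SPARC shared this pattern and TNC had little signal to lose. THBS1 encodes thrombospondin-1, which binds many matrix and cell-surface proteins and can activate latent TGF-beta. Its brighter probe had log2 signals of 11.05 and 11.40 at 24 h and 11.22 and 5.65 at 48 h, in the order stapled-peptide, non-specific stapled-peptide. The 48 h difference was −5.57, or 47.6-fold lower, and the spot was well above background on each array.

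The other probe of THBS1 carries the same transcript but gave a smaller difference. It had 7.65, 7.61, 7.81 and 4.93 on these arrays, a 48 h difference of −2.88 or 7.36-fold. The direction was the same at both probes, while only the brighter one passed 10-fold.

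POSTN encodes periostin, a matricellular protein that helps collagen fibrils assemble and become cross-linked. Its log2 signals were 10.03 and 10.07 at 24 h and 9.94 and 2.83 at 48 h. The last was not well above background, and the difference of −6.38 is a bound, at least 83.1-fold lower.

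SPARC encodes osteonectin, a collagen-binding protein that loosens cell contact with the matrix. Its log2 signals were 11.05 and 11.12 at 24 h and 10.91 and 5.50 at 48 h. The 48 h difference of −5.41, or 42.5-fold lower, was measured on both arrays.

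TNC encodes tenascin-C, a large glycoprotein of remodelling tissue. Its log2 signals were 5.18 and 5.79 at 24 h and 5.22 and 3.76 at 48 h, where it was not well above background. The bound was at least 2.76-fold lower, and the 3 other arrays already spanned 0.61, the widest range among the 12 probes that were well above background on all 3 of them.

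FBN1 encodes fibrillin-1, the backbone of the microfibrils that carry elastin and store latent TGF-beta. Its log2 signals were 6.58 and 6.53 at 24 h and 6.64 and 3.79 at 48 h. It was measured on every array and was 7.17-fold lower on the last, with a software error there of 21.4% of the signal.

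MGP encodes matrix Gla protein, a small vitamin K-dependent protein that keeps soft tissue from calcifying. Its probes carry different transcripts. The brighter had log2 signals of 14.63 and 14.56 at 24 h and 14.62 and 5.29 at 48 h, in the same order of peptides. The other had 13.89 and 13.83, then 13.86 and 4.22. Both probes were well above background on all 4 arrays, and they put MGP 641-fold and 794-fold lower at 48 h. The probes agree in size, and the range over the other 3 arrays was 0.07 and 0.06.

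**Figure D1:**
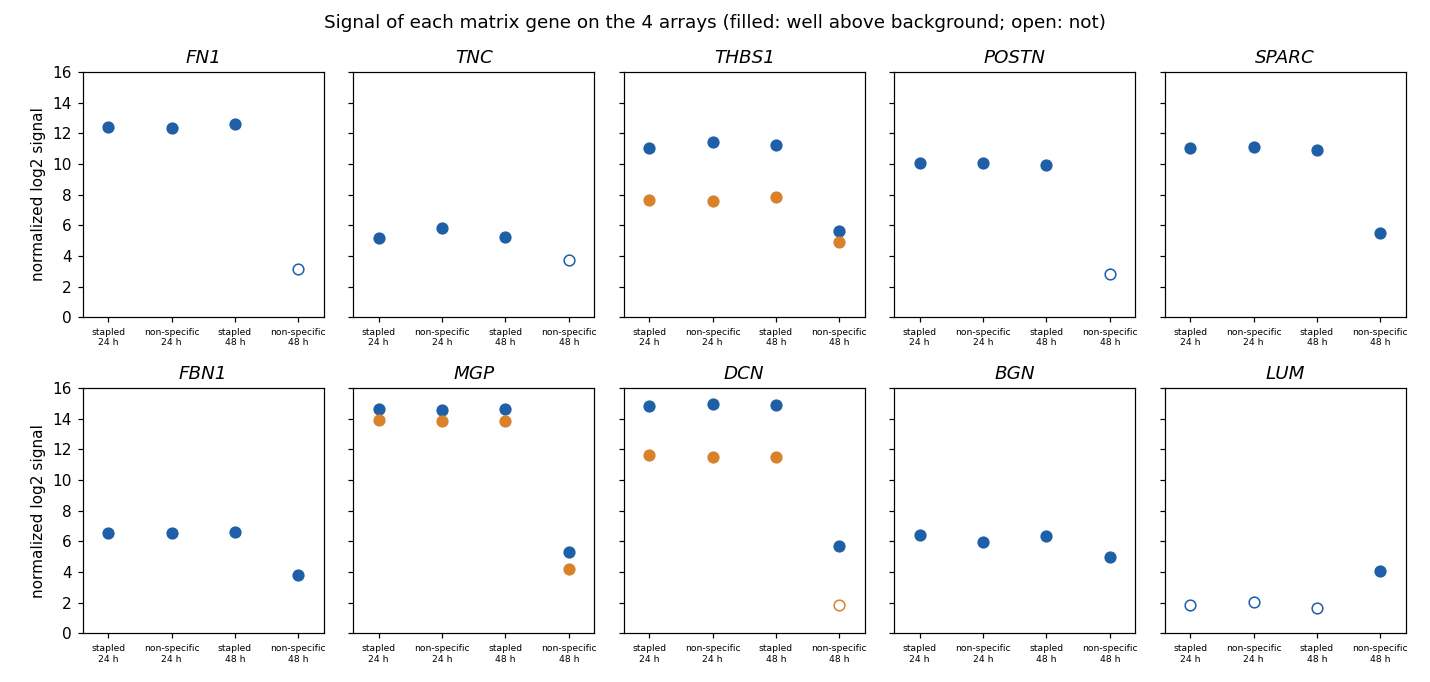
Normalized log2 signal (y axis) of each gene on the 4 arrays (x axis), with the probe of highest mean signal in blue and a second probe, where there is one, in orange. Points are single arrays, filled where the spot was well above background; for FN1, POSTN, SPARC, THBS1, MGP and DCN the array with non-specific stapled-peptide at 48 h lies far below the other 3, and for LUM it is the only filled point.

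The 3 small leucine-rich proteoglycans did not move together. DCN encodes decorin, which wraps around collagen fibrils, carries 1 sugar chain and binds TGF-beta. Its brighter probe had log2 signals of 14.84 and 14.96 at 24 h and 14.88 and 5.73 at 48 h. With deposited signals of 28480.3 and 57.0 at 48 h, DCN was 568-fold lower after normalization, measured on both arrays.

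The other probe of DCN, labelled with another of its transcripts, had 11.61, 11.49, 11.52 and 1.85. On the last array its spot was not well above background, so its difference of −7.95 is a bound, at least 248-fold lower.

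BGN encodes biglycan, the closest relative of decorin. Its log2 signals were 6.40 and 5.96 at 24 h and 6.36 and 5.00 at 48 h, so it was measured on every array. It was 2.57-fold lower at 48 h (−1.36), against a range of 0.44 over the other 3 arrays.

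LUM encodes lumican, a keratan sulfate proteoglycan best known from the cornea. Its log2 signals were 1.83 and 2.08 at 24 h and 1.63 and 4.07 at 48 h, and only the last was well above background, with a deposited signal of 15.2 and a software error of 19.7%. The bound against stapled-peptide was at least 1.14-fold higher (0.19), and scaling to the 75th percentile left no fold above 1.

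DCN and LUM are neighbours on chromosome 12, in the annotation order EPYC, KERA, LUM, DCN, all 4 of them members of the same proteoglycan family. KERA, which encodes keratocan, and EPYC, which encodes epiphycan, had no spot well above background on the 4 arrays. So on the array with the lowest DCN signal, LUM was well above background and KERA and EPYC were not.

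The median 48 h difference of the 10 genes, bounds included, was −5.49 on the log2 scale, against 0.03 over all 17112 genes. It is given as a description, since the genes were named with results of these arrays known. Of the 9 genes well above background on each of the other 3 arrays, 3 (FN1, TNC and POSTN) were not so on the array with non-specific stapled-peptide at 48 h, against 5.39% of 14842 such genes. Within those 14842 genes, 4.49% were over 10-fold lower at 48 h, against 6 of the 9, and 0.815% over 100-fold lower, against 3 of the 9. In bulk RNA, fewer cells that express a gene and less of its RNA per cell cannot be told apart, nor can either be told from RNA of other cells on that array.

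**Figure D2:**
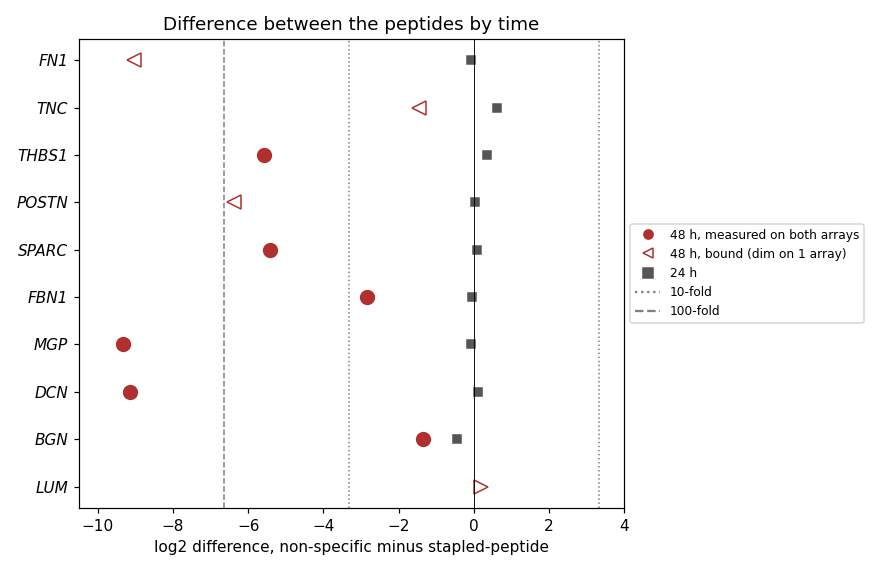
Log2 difference in normalized signal, non-specific stapled-peptide minus stapled-peptide (x axis), for each gene at its probe of highest mean signal. Red symbols are 48 h (open arrows are bounds), grey squares 24 h; the 24 h values lie between −0.44 and 0.61, while 6 genes at 48 h lie beyond the dotted 10-fold line.

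At 24 h, 4 genes were lower and 5 higher with non-specific stapled-peptide, and LUM had no difference because it was dim on both arrays. The differences ran from −0.44 for BGN to 0.61 for TNC, with a median of 0.04, against 0.01 over 16228 genes. None of the 9 passed 10-fold, against 0.037% of all genes. Both extremes belong to probes of low signal that were still well above background on both arrays, with deposited signals of 86.8 and 63.6 for BGN and 40.0 and 57.0 for TNC. For the 6 genes that were over 10-fold lower at 48 h, the 24 h differences were −0.07 for FN1, 0.34 for THBS1, 0.04 for POSTN, 0.07 for SPARC, −0.07 for MGP and 0.12 for DCN.

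Over time with stapled-peptide, the genes stayed near their 24 h level. The differences of 48 h minus 24 h ran from −0.14 for SPARC to 0.19 for FN1, and none of the 9 passed 10-fold, against 0.0124% of all genes. Over time with non-specific stapled-peptide, the same 6 genes were over 10-fold lower at 48 h, against 3.91% of all genes that were lower by as much. This comparison shares the array at 48 h with the one between peptides. Its values were −8.78 (a bound) for FN1, −5.75 for THBS1, −6.50 (a bound) for POSTN, −5.62 for SPARC, −9.26 for MGP and −9.23 for DCN.

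No replicate cultures of a condition are there to set beside these differences. Each of the 13 probes has a single spot per array, and none of these spots was marked as an outlier. Probes with 5 or more spots had a median SD between spots of 0.07 to 0.08 (log2) on each array. Over the 3 arrays other than the one apart, the 12 probes of these genes that were well above background on all 3 had a median range of 0.17, against 0.20 over 27925 such probes, of which 95% were within 0.78. The 48 h differences of all 9 lower genes exceed that limit, although BGN and TNC, at −1.36 and −1.46, do so by less than 1 on the log2 scale. The limit leaves out the array apart, whose differences were wider throughout. Over 35697 probes, its difference from stapled-peptide at 48 h had an SD of 1.80, against 0.58 to 0.60 between the other arrays. BGN and TNC lie within 1.80, so passing the limit does not set them apart from other probes. With normexp background correction each of the 9 differences was smaller. They were -0.41 for TNC, -0.59 for BGN, -1.18 for FBN1, -3.95 for POSTN, -4.26 for SPARC and -4.38 for THBS1. Those of FN1, MGP and DCN were -6.59, -7.86 and -8.14. The values of FN1, TNC and POSTN are again bounds, so the least folds given above for these genes depend on the processing. The limit of 0.78 was not computed with normexp, so these values cannot be set against it. The SD between spots is technical, while the range over the 3 arrays mixes the spread between samples with peptide and time.

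**Figure D3:**
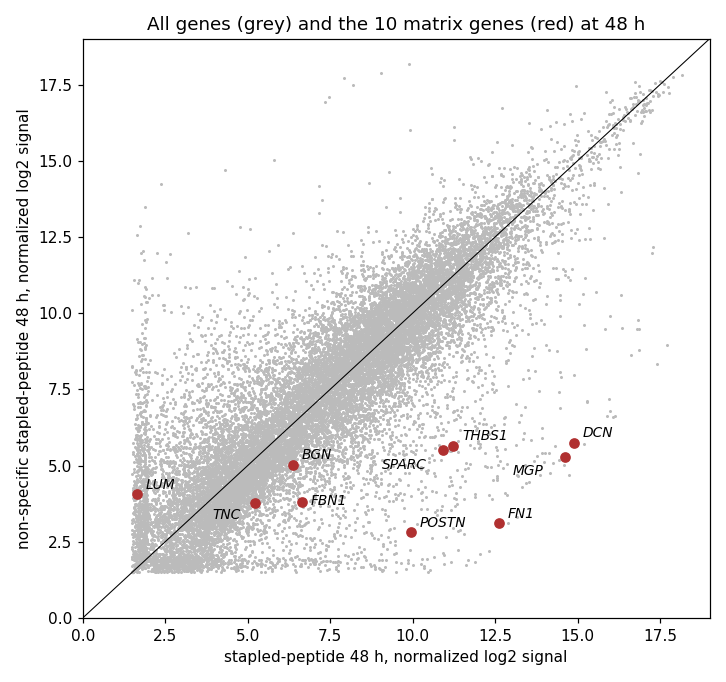
Normalized log2 signal with stapled-peptide (x axis) and non-specific stapled-peptide (y axis) at 48 h, with a grey point for each of the 20501 genes and the 10 matrix genes in red. The black line marks equal signal; DCN, MGP and FN1 lie at 14.88, 14.62 and 12.61 on the x axis and at 5.73, 5.29 and 3.12 on the y axis.

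Relatives of the 10 genes, named here after their values were seen, differed in size and direction at 48 h. TGFBI, the closest relative of POSTN, was 432-fold lower, with log2 signals of 17.70 for stapled-peptide and 8.95 for non-specific stapled-peptide. THBS3 was 2.40-fold lower, and THBS2 had no spot well above background. FBN2 was 1.66-fold lower, TNXB 1.34-fold and TNR 1.41-fold. SMOC1, a relative of SPARC, went the other way, from 5.04 to 10.68 or 49.8-fold higher.

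Of 44 other matrix glycoproteins, 39 had a difference at 48 h, 12 were over 10-fold lower and 4 over 10-fold higher, with a median of −1.08. Over all genes, 3.92% were over 10-fold lower and 2.64% over 10-fold higher. Besides TGFBI, the largest differences were those of EFEMP1 (fibulin-3, an elastic fibre protein), 121-fold lower from 14.89 to 7.98, and NID1 (nidogen-1, a basement membrane linker). NID1 had log2 signals of 2.10 and 1.97 at 24 h and 2.10 and 10.60 at 48 h, and was at least 105-fold higher. The others over 10-fold higher were SMOC1, FRAS1 (3.93) and EMILIN2 (3.79, a bound). The direction of a matrix gene at 48 h was thus not the same throughout the list.

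Of 24 other secreted proteoglycans, 15 had a difference, with a median of −1.52. Of these, 5 were over 10-fold lower and none over 10-fold higher, against 3.92% and 2.64% of all genes. SPOCK1, a proteoglycan related to SPARC, was at least 86.6-fold lower, from 10.00 to 1.72. SRGN (serglycin) was at least 25.4-fold lower and ECM2, a leucine-rich matrix protein, at least 18.7-fold lower.

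The enzymes that build the sugar chains of proteoglycans such as decorin and biglycan differed by less. Of 21 such genes, 20 had a difference, with a median of −0.89, and 2 were over 10-fold lower, against 3.92% of all genes. DSEL, which is related to the epimerase that makes dermatan sulfate, was 101-fold lower, from 11.15 to 4.50. CSGALNACT1, which starts chondroitin chains, was 14.7-fold lower, and CHST3, a chondroitin sulfotransferase, 8.53-fold.

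Of 18 enzymes that process or cross-link matrix proteins, 3 were over 10-fold lower, against 3.92% of all genes, with a median of −0.96. They were ADAMTS5 (an aggrecanase, at least 18.1-fold), LOX (lysyl oxidase, 13.6-fold) and BMP1 (procollagen C-proteinase, 12.7-fold). The enzymes of the vitamin K step that matures MGP, named after their values were seen, were not over 10-fold lower: VKORC1 had 12.84 and 12.78 at 48 h, and GGCX 8.92 and 8.09, 1.78-fold lower.

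Of 15 cell-surface receptors for these proteins, 12 had a difference, 11 of them lower and 5 over 10-fold lower, with a median of −2.77. Over all genes, 8360 of 17112 were lower and 3.92% over 10-fold lower. SDC4 (syndecan-4) was 19.8-fold lower, from 12.42 to 8.11. ITGA5 and ITGB1, the subunits of the classical fibronectin receptor, were 14.9-fold and 14.6-fold lower. At 24 h the medians of these 5 lists lay between −0.04 and 0.05, and no gene of them passed 10-fold.

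**Figure D4:**
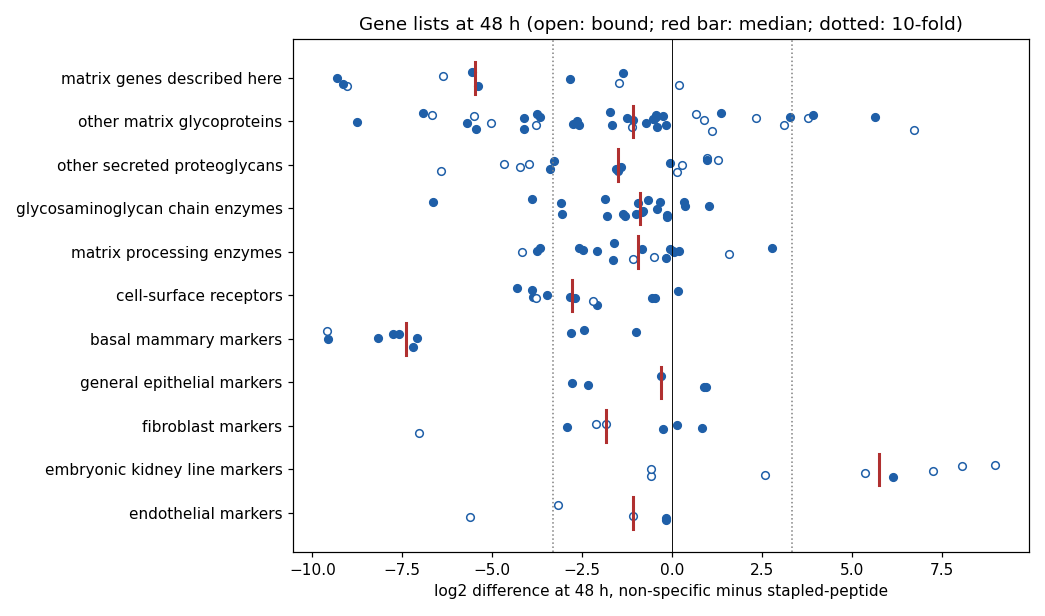
Log2 difference at 48 h, non-specific stapled-peptide minus stapled-peptide (x axis), for the genes of each list (y axis), 1 point per gene. Open points are bounds and red bars medians, which lie at −5.49 for the 10 matrix genes, −7.39 for basal mammary markers and 5.75 for embryonic kidney line markers.

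Markers of cell types moved on the same array as the matrix genes. All 10 basal mammary markers were well above background on the other 3 arrays, with a log2 summed signal of 16.85 to 16.86. On the array with non-specific stapled-peptide at 48 h, 9 of 10 were well above background, but the summed signal was 9.79. At 48 h, 7 were over 10-fold lower, against 3.92% of all genes. Of the 10 fibroblast markers, 7 to 8 were well above background on the other arrays and 4 on this one, with a summed signal of 11.87 to 11.89 and 9.14. COL1A2 and COL3A1 had no spot well above background, whereas COL1A1 had 6.41 to 6.54 on the other arrays and 6.67 on this one. The brightest of the list were TWIST1 (10.88 to 10.98, then 7.97) and FAP (10.50 to 10.61, then 2.62, not well above background), while PRRX1 was higher at 48 h (0.84). The 10 embryonic kidney line markers had 2 to 3 well above background and a summed signal between 7.86 and 8.003 on the other arrays, against 6 and 14.58 on this one, led by CKB (13.30) and LIN28B (12.86). At 48 h, 6 of these markers were higher. They were CKB (6.13) and, as bounds, LIN28B (8.98), NEFM (8.05), NEFL (7.26), INA (5.36) and STMN2 (2.58). The 2 lower were PAX2 (−0.59) and L1CAM (−0.58), both as bounds. SOX11 and PHOX2A had no difference because they were dim on both arrays. Which cells these values stand for was not tested. The 5 endothelial markers had a summed signal of 9.42 to 9.59 on the other arrays and 6.02 on this one. The 5 general epithelial markers, all well above background on every array, had 14.89 to 14.97 and 12.62, a sum carried by KRT18 (14.79 and 12.45 at 48 h). Their median difference at 48 h was −0.31, with KRT18, KRT8 and CDH1 lower and KRT19 (0.94) and EPCAM (0.88) higher. CDH1, EPCAM and KRT19 had low signal on the other arrays. CDH1 had 4.92 to 5.44 there and 5.13 on this array, inside that range. EPCAM had 4.86 to 5.58, then 6.46, and KRT19 had 4.50 to 4.98, then 5.44. The part of these markers in the difference of the matrix genes was not tested.

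The genes nearest in profile over the 4 arrays were sought for the 6 genes measured on all of them. The measure was the Euclidean distance between log2 signals centred on each gene's mean, over 4 arrays and 13938 genes outside the lists. This pool was limited to genes well above background on all 4 arrays after the data were seen, since a dim spot gives only a bound. That leaves out FN1, TNC and POSTN. Under the planned rule, with 3 or more arrays, the nearest were MT1M for FN1 (0.15), OR2AE1 for TNC (0.07) and C2CD2 for POSTN (0.09). That rule gave AOX1 for DCN (0.03), CGREF1 for SPARC (0.08) and PTPRO for THBS1 (0.07). It gave the same nearest gene as below for MGP, FBN1 and BGN. MGP was nearest to MT1M (0.06), a metallothionein, and ADIRF (0.06), DCN to S100A6 (0.09) and S100A16 (0.12), both S100 calcium-binding proteins. SPARC was nearest to BST2 (0.13) and TNNI2 (0.14), and THBS1 to MIEF1 (0.16) and SEMA3C (0.19). FBN1 was nearest to DCUN1D3 (0.03) and ACSL5 (0.03), and BGN to ATP2B2 (0.04) and HLA-B (0.08). Within a distance of 0.5 lay 17 genes for MGP and 18 for DCN, 0.122% and 0.129% of the pool, against 1519 or 10.9% for BGN. The other 3 arrays spanned only 0.07 for MGP, 0.12 for DCN and 0.44 for BGN. The distance thus mostly reflects the size of the drop with non-specific stapled-peptide at 48 h. The counts mostly restate how many genes dropped by a similar amount there, and shared regulation was not tested.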

How the data were processed

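Spot signals were extracted by the authors with Agilent Feature Extraction, version 10.7.1.1 per the file headers and 9.5 in the submitters' processing notes. The deposited intensity of a spot is background-subtracted, linear and not normalized between arrays. Marks for outliers and for signal well above background, taken here as other values, come from the same deposited files. Control and outlier-marked spots were left out. Signals under 1 were set to 1, replicate spots were averaged as log2, and arrays were quantile-normalized together (4 arrays), as the study's methods state; 9 probes without a spot on every array were dropped. RefSeq accessions gave 28168 probes a symbol. Each gene is represented by its brightest probe on average. For a probe with a dim spot on 1 of the arrays compared, the dim value was replaced by that array's lowest well-above-background signal (3.57 to 3.94, log2) if this was higher, which gives a bound; none was given where no fold above 1 was left. Folds of 10 and of 100, the study's threshold, were counted.

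The genes, lists and motifs were chosen with earlier results of these data known. The genes named are the 10 genes, the 3 largest 48 h differences of each related list, KERA and EPYC, and the 2 nearest profiles of each gene. The rule took these among genes well above background on 3 or more arrays. After the data were seen, this was narrowed to all 4, and the nearest gene under the rule is given where it differs. Of the markers, counts and the 2 brightest were to be given; the others named were chosen after their values were seen. The alternatives were no normalization, scaling to the 75th percentile, normexp with an offset of 50, no bound, measured differences only (both spots well above background), outlier-marked spots kept, the mean over a gene's probes, the deposited combined intensity table, and folds of 4 and 50. Normalization and the difference between arrays were tested on simulated probe values, with changes at bright probes only. Spot averaging, outlier removal, the choice of probe and genes of low signal throughout were not covered. Python 3.11.15, numpy 2.4.6, pandas 2.3.3, matplotlib 3.10.9, limma 3.58.1 and R 4.3.3 were used. Protein sequences were not used here.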

Additional observations from a re-analysis of the deposited data

Results flagged for a closer look

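For 5 genes, each at its brightest probe, the difference between the peptides pointed in opposite directions at the 2 times, each with 1 array per condition, so the change of direction was not tested. With non-specific stapled-peptide minus stapled-peptide on the log2 scale, TNC had 0.61 at 24 h and −1.46 at 48 h, THBS1 0.34 and −5.57, and DCN 0.12 and −9.15. POSTN had 0.04 and −6.38, and SPARC 0.07 and −5.41. The second probes of THBS1 (−0.04 at 24 h, −2.88 at 48 h) and DCN (−0.12, and −7.95 as a bound) had the same sign at both times. Apart from TNC and THBS1, the 24 h values are within the median range of 0.20 over the 3 arrays that resembled each other.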

How the results depend on the processing

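At 48 h the 6 genes over 10-fold lower were the same genes under scaling to the 75th percentile, no normalization, normexp, no bound, outlier-marked spots kept, the mean over probes and the combined table. With measured differences only 4 remained, THBS1, SPARC, MGP and DCN, because this setting removes every bound, and at 4-fold there were 7. The 3 genes over 100-fold were 4, with POSTN, under scaling and without the bound. They were 2, MGP and DCN, under normexp and with measured differences only. At 50-fold there were 4. The share of all genes was not counted under these alternatives. Their counts therefore show only how the calls depend on the setting. The median at 48 h, −5.49, was −4.10 under normexp and −4.82 with the mean over probes. The dimmer probes of THBS1, MGP and DCN enter that mean. THBS1, at −4.23 there, moved the median, while MGP (−9.48) and DCN (−8.55) stayed among the lowest. The median at 24 h, 0.04, reversed to −0.0010 with the mean over probes, as did DCN at 24 h, also −0.0010, because its probes differed in sign there. Normexp made the 48 h difference smaller for each of the 9 lower genes. It started from the median signals of spot and background, not from the background-subtracted signal used elsewhere. Its offset of 50 is added to every signal, which lowers folds that involve dim spots. The FN1 spot with non-specific stapled-peptide at 48 h, for example, had a deposited signal of 7.81. How much of the change came from the offset and how much from the other input was not tested. Scaling moved the median of all genes at 48 h from 0.03 to −0.06, and no normalization to 0.26. Counts at 24 h and over time with stapled-peptide were 0 under every alternative tried, 4-fold included. No paired analysis was possible because each condition has 1 array. Signal near background leaves only bounds at 48 h for FN1, TNC and POSTN, which were dim with non-specific stapled-peptide, and for LUM, which was dim with stapled-peptide. No spot was saturated.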
